A study of Gallus gallus with 5 samples.

Results

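The MYC network is a set of transcription factors that meet at the same DNA sites, and it was described here through 9 genes: MYC and MYCN, their shared partner MAX, the opposing factors MXD1, MXI1, MXD3, MXD4 and MNT, and MYB. Members were all probe sets that the platform annotation assigns to a single symbol, 1 of these 9, which gave 16 probe sets of 38439 on the array and covered 8 of the 9 genes. MAX had no probe set with a single symbol there and was not analysed here. After a filter on low signal, 13 of the 16 probe sets, from 7 genes, were tested, among 23053 in all. The probe sets were read in DT40, a B cell line derived from a bursal lymphoma of a chicken.

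MYC and MYCN bind DNA as dimers with MAX and raise transcription of genes for growth, ribosome production and metabolism. MXD1, MXI1, MXD3, MXD4 and MNT compete for MAX, and their dimers recruit the SIN3 corepressor and histone deacetylases to the same sites. In bursal lymphomas of chickens, avian leukosis virus often integrates next to MYC, and MYB, a transcription factor of blood progenitors, is another gene near which such viruses integrate.

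The array labelled H1L came from DT40 cells with the linker histone variant H1L deleted (1 array), and the arrays labelled H1R from cells with the variant H1R deleted (2 arrays). The remaining 2 arrays came from wild-type DT40 cells (WT). The labels mark each deletion with -/-, name no further allele or agent, and place all cells in exponential growth under normal culture. The comparison with WT addresses which genes a single H1 variant regulates. The labels name no clones and do not say whether replicates were separate cultures, so p-values cover no more than the spread among these 5 arrays, perhaps a technical one. A date code in the descriptions puts replicate 1 of H1R and of WT on a first day, and the array labelled H1L with replicate 2 of H1R and of WT on a second day.

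Median signals lay between 19.3 and 22.4, while trimmed means ranged from 120.8 on replicate 1 of WT to 154.5 on replicate 2 of H1R, so how the arrays were scaled to each other is not known. On these arrays 41% to 52.5% of probe sets lay above the background limit, set on each array by the brightest of 23 controls that have no target in chicken. That limit was 23 on the array labelled H1L, 18 and 33.6 for H1R, and 29.2 and 21.4 for WT. RNA integrity was read as control signal at the 3' end over that at the 5' end. For actin, replicate 1 of H1R had the highest ratio, 3.87, and the other arrays lay between 2.01 and 2.81. For GAPDH the ratio was 1.09 on that array and between 1.0 and 1.04 on the others, so that control hardly set it apart. The probe set of HIST1H111L was not lower on the array labelled H1L (2295.3) than in WT (1320 and 2034.8), and that of HIST1H111R read 28.9 and 7 in H1R against 36.1 and 39.4 in WT. Whether these probe sets read the deleted genes is not stated, so the genotypes rest on the labels. Of 12 B cell marker genes with a probe set, 11 or 12 were above the limit on each array. Of 10 T cell markers, 3 to 5 were above it on each array, with CD3D (730.8 to 4040.7) and CD247 above on all 5, while CD4, LCK, ZAP70 and GATA3 were at or below it on all 5. The T cell markers summed to 2281.4 on the array labelled H1L, 1586.9 and 1015.2 in H1R, and 2586.3 and 4382.9 in WT. CD3D supplied most of each of these sums.

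Of the 7 tested genes of the network, MYCN was the 1 with a probe set past the threshold: its brighter probe set rose in H1R and was at or below background in WT. That probe set passed the filter on mean signal through the H1R arrays, and the other MYCN probe set did not pass the test. Genes that did not pass are not shown to be unchanged. MYC, the brightest member, had nearly the same signal in all 5 arrays, and the opposing factors MXD1, MXI1, MXD3, MXD4 and MNT did not pass in any comparison. Against WT, 1 of 13 member probe sets passed in H1R, where 1.15% of all tested probe sets passed (0.581% higher and 0.573% lower), and it was higher (limma, Benjamini-Hochberg adjusted p under 0.05). On the array labelled H1L 0 of 13 passed against WT, where 0.2% of all did (0.0911% higher and 0.108% lower). At an unadjusted p under 0.05, 2 of 13 passed in H1R, both of MYCN, where 10.2% of all did. The 3 comparisons share arrays and are not independent of each other. With 1 array for H1L, its tests borrow the spread of the others.

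MYC was read by 1 probe set. Its signal was 7874.9 on the array labelled H1L, 6725.4 and 7895.1 in H1R, and 7684.8 and 8785 in WT. The groups overlapped, and the lowest and the highest array were replicate 1 of H1R and replicate 2 of WT. The mean was 7310 ± 827 in H1R and 8230 ± 778 in WT (SD, n = 2 each), a ratio of 0.888. The log2 fold change of H1R against WT was -0.17 ± 0.16 (standard error, as for all log2 fold changes here), with a 95% interval of -0.55 to 0.21 (limma adjusted p = 0.824).

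On the array labelled H1L the log2 fold change of MYC against WT was -0.06 ± 0.20, with an interval of -0.53 to 0.40 (limma adjusted p = 0.991), and its sign turned after quantile normalization (0.07) and median scaling (0.01). Against H1R it was 0.11 ± 0.20 (limma adjusted p = 0.957). Changes in MYC transcript smaller than these intervals were not detectable with this number of arrays. Replicate 2 exceeded replicate 1 by 0.23 log2 units in H1R and by 0.19 in WT. Within days, H1R lay below WT by similar amounts, with log2 differences of -0.19 and -0.15. The difference between replicates was thus as large as that between genotypes. Replicate 2 also had the higher trimmed mean signal, 154.5 against 136 in H1R and 146.2 against 120.8 in WT. Day and array brightness cannot be told apart here. Relative to the median probe set, the log2 fold change of MYC in H1R against WT was -0.26.

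**Figure D1:**
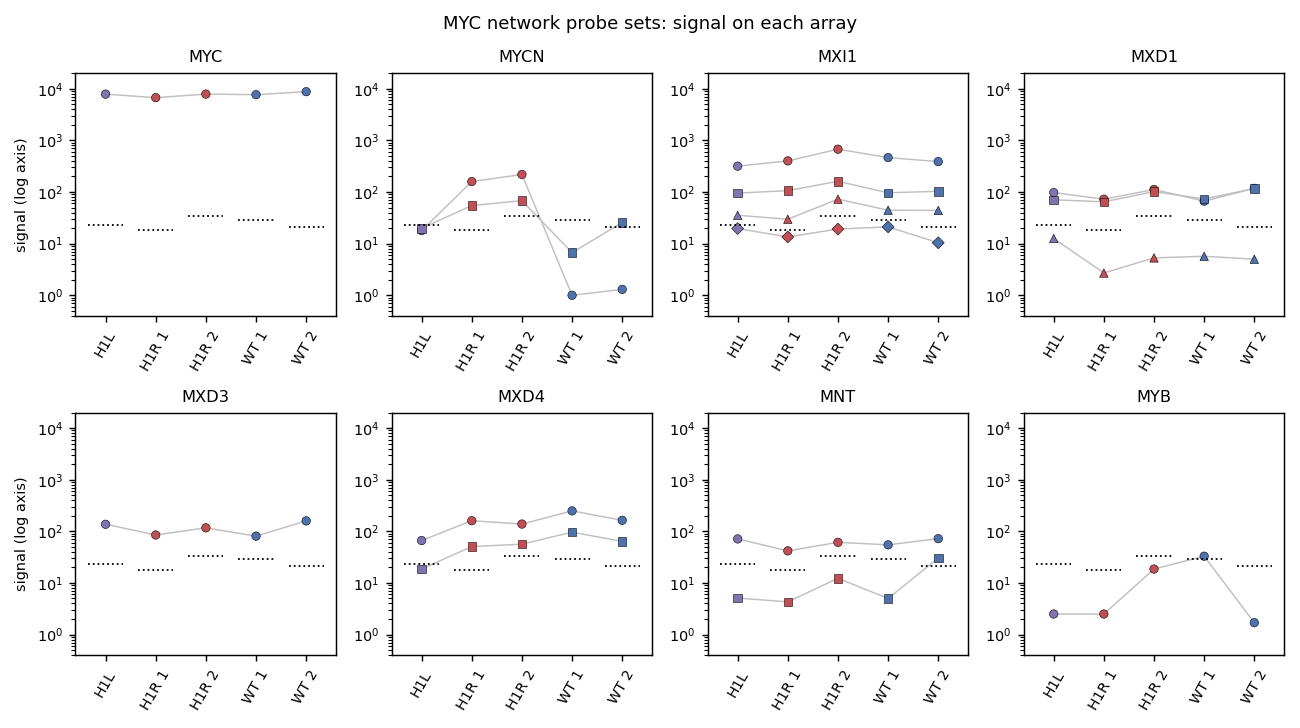
Signal of the 16 member probe sets on each of the 5 arrays, on a logarithmic axis, with 1 panel per gene, 1 marker shape per probe set, grey lines joining the values of a probe set and a dotted mark at the background limit of each array. The brighter MYCN probe set stands at 159.4 and 218.9 in H1R and at 1 and 1.3 in WT, while MYC stays between 6725.4 and 8785 on all arrays.

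MYCN, a paralogue of MYC that is known from the embryonic nervous system and from neuroblastoma, had 2 probe sets. The brighter gave 17.9 on the array labelled H1L, 159.4 and 218.9 in H1R, and 1 and 1.3 in WT. Both H1R arrays were above their background limits, whereas the array labelled H1L and both WT arrays were at or below theirs. H1R and WT did not overlap, as in 3 of 13 member probe sets with H1R higher, where 24.9% of all were so ordered. By this probe set MYCN rose at least 7.47-fold in H1R against WT, a bound that sets the WT arrays at their background limits. This probe set passed the filter on mean signal through the H1R arrays, so it entered the test because of the group where it was high. The fitted log2 fold change was 4.83 ± 0.39 (limma adjusted p = 0.00127) and depends on the constant of 5.6 added to each signal. Its direction was the same on both days, at 4.64 on the first and 5.02 on the second, and the call held in all 13 alternative settings, with log2 fold changes between 2.72 and 6.45 and limma adjusted p-values between 0.00018 and 0.0202.

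The second MYCN probe set read 19.8 on the array labelled H1L, 54.7 and 68 in H1R, and 6.7 and 25.7 in WT. It was above the limit in both H1R arrays and in replicate 2 of WT, and again the H1R and WT arrays did not overlap. Its log2 fold change in H1R was 1.76 ± 0.51 and did not pass (limma adjusted p = 0.23, or 0.0536 with the day as block). The positive sign was the same on both days, with 2.29 and 1.23. The rise of MYCN passed in 1 of its 2 probe sets.

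On the array labelled H1L, neither MYCN probe set exceeded the background limit of 23, so no fold against WT is given, and the tests did not pass (limma adjusted p = 0.414 and 0.976). In the direct comparison, MYCN was at least 8.12-fold lower on the array labelled H1L than in H1R by the brighter probe set and at least 2.65-fold lower by the other. The first had a log2 fold change of -3.03 ± 0.48, or -2.89 relative to the median probe set, with an unadjusted p of 0.00022, and did not pass (limma adjusted p = 0.262, or 0.0816 with the day as block). The rise of MYCN in H1R was thus not shown to differ between the deletions. Of the 13 member probe sets, 0 passed in this comparison, where 0.00434% of all did, and 3 had an unadjusted p under 0.05, where 5.55% of all did. The array labelled H1L lay below both H1R arrays in 6 member probe sets and above both in 3, where 46% and 20.7% of all did. In bulk RNA, more cells with the transcript and more transcript per cell cannot be told apart.

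In the RefSeq annotation of GRCg7b, the nearest genes to MYCN with a tested probe set were DDX1, an RNA helicase often amplified together with MYCN in human neuroblastoma, and FAM49A, with 1 gene between each of them and MYCN. DDX1 gave 1549.1 on the array labelled H1L, 1423.8 and 1599.3 in H1R, and 922.7 and 1158 in WT. All deletion arrays lay above both WT arrays, but the log2 fold changes of 0.58 ± 0.30 (array labelled H1L) and 0.54 ± 0.25 (H1R) did not pass (limma adjusted p = 0.813 and 0.518). Its second probe set gave 0.53 ± 0.26 and 0.46 ± 0.21, again with all deletion arrays above WT. FAM49A read 1564.9 on the array labelled H1L, 1847 and 1517.7 in H1R and 1611.9 and 1211.3 in WT, with overlapping groups (limma adjusted p = 0.831 in H1R). Neither neighbour passed the test that MYCN passed.

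The 5 genes whose pattern over the 5 arrays was most like the brighter MYCN probe set were LRRN3, MMP2, CAV3, BGN and ARRDC1. Likeness was the root mean square difference of log2 values, each centred on its own mean, and it ran from 0.376 for LRRN3 to 0.561 for ARRDC1 among 17345 probe sets. This search was added after the values of MYCN had been seen. LRRN3, a membrane protein with leucine-rich repeats, read 47.6 on the array labelled H1L, 264.3 and 254 in H1R, and 6.6 and 10.9 in WT. MMP2, a secreted metalloproteinase in the fibroblast marker list, read 17.9 on the array labelled H1L, 327.9 and 277.4 in H1R, and 9.1 and 3.1 in WT. That both were high in H1R and at or below background in WT, like the brighter MYCN probe set, follows from the search that picked them.

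Other marker genes moved in H1R too, and VIM, COL1A2 and CD79B among them lay on the same side of WT on the array labelled H1L. Of 12 fibroblast markers with a probe set, 7 and 6 were above the limit in H1R and 4 and 6 in WT. Their summed signal was 675.3 and 863.7 in H1R against 1477.5 and 1960 in WT. VIM supplied most of the WT sums, at 1276.9 and 1739 against 74.5 and 128.5 in H1R, so the order of the sums follows VIM. MMP2 rose and VIM fell (log2 fold change -3.85 ± 0.35, limma adjusted p = 0.00226). COL1A2 rose by at least 4.4-fold in H1R in 1 probe set (limma adjusted p = 0.0181), a call lost in 4 of 12 alternatives. That probe set read 58.4 on the array labelled H1L, at least 2.34-fold above WT. COL1A1, also a fibroblast marker, was by contrast lower on every deletion array than in WT (36.6 and 41.3). Its signals were 20.5 and 20.4 in H1R and 16.5 for H1L, and of these replicate 1 of H1R alone exceeded its limit. The change of COL1A1 in H1R did not pass (log2 fold change -0.77 ± 0.39, limma adjusted p = 0.575). DCN, LUM and TWIST1, further markers of that list, were at or below the limit on all 5 arrays. CD79B, a chain of the B cell receptor, fell by 1.45 ± 0.21 on the log2 scale in H1R (limma adjusted p = 0.02), and this call was lost in 5 of 13 alternatives (adjusted p up to 0.162). On the array labelled H1L it read 2021.7, also below WT (3263.8 and 3744.7). Of 12 tested B cell markers, 7 had a positive log2 fold change in H1R, with a list median of 0.0756 beside 0.118 for all named genes. IRF8 of that list was higher in H1R and passed with the day as block alone (1.26 ± 0.49, limma adjusted p = 0.422, or 0.029 with the block).

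CD5 of the T cell list read 229.7 on the array labelled H1L, 246 and 208.3 in H1R, and 17.7 and 36.1 in WT, and it rose in H1R (log2 fold change 2.90 ± 0.37, limma adjusted p = 0.0102), with the call lost in 3 of 13 alternatives. The T cell list did not rise with CD5: of 5 tested genes, 2 had a positive log2 fold change in H1R, and the list median was -1.13. CD3D was lower in H1R and passed with the day as block alone (-1.73 ± 0.34, limma adjusted p = 0.0644, or 0.0119 with the block). MMP9, a secreted metalloproteinase of the myeloid list, read 793.3 on the array labelled H1L, 246.2 and 389.1 in H1R, and 24.1 and 61.2 in WT. MMP9 rose by 4.16 ± 0.55 on the array labelled H1L and by 2.82 ± 0.45 in H1R (limma adjusted p = 0.0398 and 0.0278), calls lost in 4 and 3 of 13 alternatives. All deletion arrays lay above WT in CD5 and in MMP9. The 10 myeloid markers summed to 2263.4 on the array labelled H1L, 1838.2 and 2275.7 in H1R, and 1219.1 and 1554.5 in WT, with 4 or 5 above the limit on each array. SPI1 supplied most of each myeloid sum (1361.8 on the array labelled H1L, 1462.8 and 1724.2 in H1R, 1030.2 and 1367.2 in WT). MMP9 supplied most of the rest on the deletion arrays. The part of cell composition in the rise of MYCN was not tested.

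MXI1, which opposes MYC through MAX, had 4 tested probe sets and 0 passed. The brightest read 316.7 on the array labelled H1L, 401.1 and 676 in H1R, and 464.3 and 388.5 in WT. H1R and WT overlapped, and the array labelled H1L was the lowest of all. The log2 fold change in H1R was 0.29 ± 0.34 (limma adjusted p = 0.87), with -0.21 on the first day and 0.79 on the second, so its sign differed between days. For the array labelled H1L it was -0.42 ± 0.42 against WT (limma adjusted p = 0.951) and -0.71 ± 0.42 against H1R, -0.56 after the median of all probe sets is taken off (limma adjusted p = 0.895).

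Replicate 2 of H1R was the highest array in 3 of the 4 MXI1 probe sets. The second brightest read 95.4 on the array labelled H1L, 106.2 and 161.6 in H1R, and 96.6 and 103.4 in WT. The next read 35.5 on the array labelled H1L, 29.7 and 72.9 in H1R, and 44.4 and 44 in WT. Between the H1R replicates these 2 probe sets differed by 0.58 and 1.15 log2 units, more than H1R and WT differed on average (0.37 ± 0.34 and 0.08 ± 0.44). The dimmest MXI1 probe set lay at or below the limit on all 5 arrays, between 10.4 and 21.1.

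MXD1, which rises as myeloid and other cells differentiate, was read by 3 probe sets. The brightest gave 97.6 on the array labelled H1L, 72.7 and 112 in H1R, and 66.6 and 118 in WT. The next gave 70.9 on the array labelled H1L, 64.6 and 101.8 in H1R, and 73.5 and 116.9 in WT. In both, replicate 2 was the higher array in H1R as in WT, by 0.59 to 0.78 log2 units, and the groups of H1R and WT overlapped. Their log2 fold changes in H1R were 0.02 ± 0.39, which turned to -0.04 after quantile normalization and -0.03 after median scaling, and -0.18 ± 0.38 (limma adjusted p = 0.995 and 0.936). The dimmest MXD1 probe set read between 2.7 and 12.6 and was not tested.

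MXD3, a member of the same family that is expressed in dividing cells of the mouse, was higher on replicate 2 in the same manner. MXD3 signals were 137 on the array labelled H1L, 84.9 and 116.9 in H1R, and 80.7 and 159.2 in WT. Replicate 2 of WT exceeded replicate 1 by 0.93 log2 units, the widest gap between WT replicates among members above the limit on all arrays. The log2 fold change was -0.18 ± 0.40 in H1R (limma adjusted p = 0.942) and 0.26 ± 0.49 on the array labelled H1L (limma adjusted p = 0.976). With the day as block the second became -0.08 ± 0.35.

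MXD4 was the one opposing factor whose 2 tested probe sets both read lower on the array labelled H1L and in H1R than in WT, without overlap. The brighter gave 66.3 on the array labelled H1L, 160.6 and 138.3 in H1R, and 248.8 and 163.5 in WT. The dimmer gave 18.6 on the array labelled H1L, where it was below the limit, 50.7 and 56.3 in H1R, and 96.4 and 63.7 in WT. Among the 13 member probe sets, 2 lay lower in H1R than in WT without overlap, where 14.5% of all did, and 6 lay lower on the array labelled H1L than in WT, where 39.1% did, and 1 higher, where 27.5% did. That 1 was the brighter MYCN probe set, at or below the limit in both groups, so its order is no measured difference. The shares of lower probe sets are near those of all tested probe sets, so the order of the arrays alone does not mark MXD4.

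The first MXD4 probe set had a log2 fold change of -1.53 ± 0.42 on the array labelled H1L against WT, with an interval of -2.49 to -0.57 and an unadjusted p of 0.00624, and did not pass (limma adjusted p = 0.431). The second was at least 3.41-fold lower and did not pass (limma adjusted p = 0.326, or 0.166 with the day as block). Together with MYCN they were the 3 member probe sets with an unadjusted p under 0.05 in this comparison, where 6.9% of all tested probe sets had one, but MYCN was at or below the limit in both groups. Against the WT array of the same day, the log2 differences were -1.23 and -1.52.

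In H1R the log2 fold changes of MXD4 against WT were -0.42 ± 0.34 and -0.51 ± 0.35 (limma adjusted p = 0.78 and 0.729). In the direct comparison, the array labelled H1L gave -1.10 ± 0.42 against H1R in the first probe set, -0.96 after the median of all probe sets is taken off (limma adjusted p = 0.877). The second was at least 2.32-fold lower (limma adjusted p = 0.865). POLN, the nearest gene after MXD4 with a tested probe set, read 7.4 on the array labelled H1L, 13.4 and 8.8 in H1R, and 53.9 and 25.8 in WT. It was below the limit on all deletion arrays, and its log2 fold changes did not pass (limma adjusted p = 0.64 for H1L and 0.398 for H1R). ZFYVE28, the nearest on the other side, went the other way in both probe sets, with 0.55 and 1.26 in H1R and 0.60 and 0.71 on the array labelled H1L. Of further neighbours, HAUS3 gave 0.18 in H1R and 0.07 on the array labelled H1L, and C4orf48 gave -0.72 and -0.77. The neighbours of MXD4 thus did not fall as a group.

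MNT, a repressor that most proliferating cells express alongside MYC, had 1 tested probe set. Its signals were 71.3 on the array labelled H1L, 41.8 and 61.2 in H1R, and 54.7 and 72.2 in WT. All 5 arrays were above the limit and the groups against WT overlapped. The log2 fold change was 0.17 ± 0.43 on the array labelled H1L (limma adjusted p = 0.987) and -0.28 ± 0.35 in H1R (limma adjusted p = 0.879). The dimmer MNT probe set exceeded the limit only on replicate 2 of WT, at 30.5, and was not tested.

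MYB was at background. Its probe set read 2.5 on the array labelled H1L, 2.5 and 18.6 in H1R, and 33 and 1.7 in WT. It exceeded the limit on replicate 1 of WT and on no other array, and failed the filter on mean signal, so no fold is given. The replicates of WT differed more than any pair of group means.

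**Figure D2:**
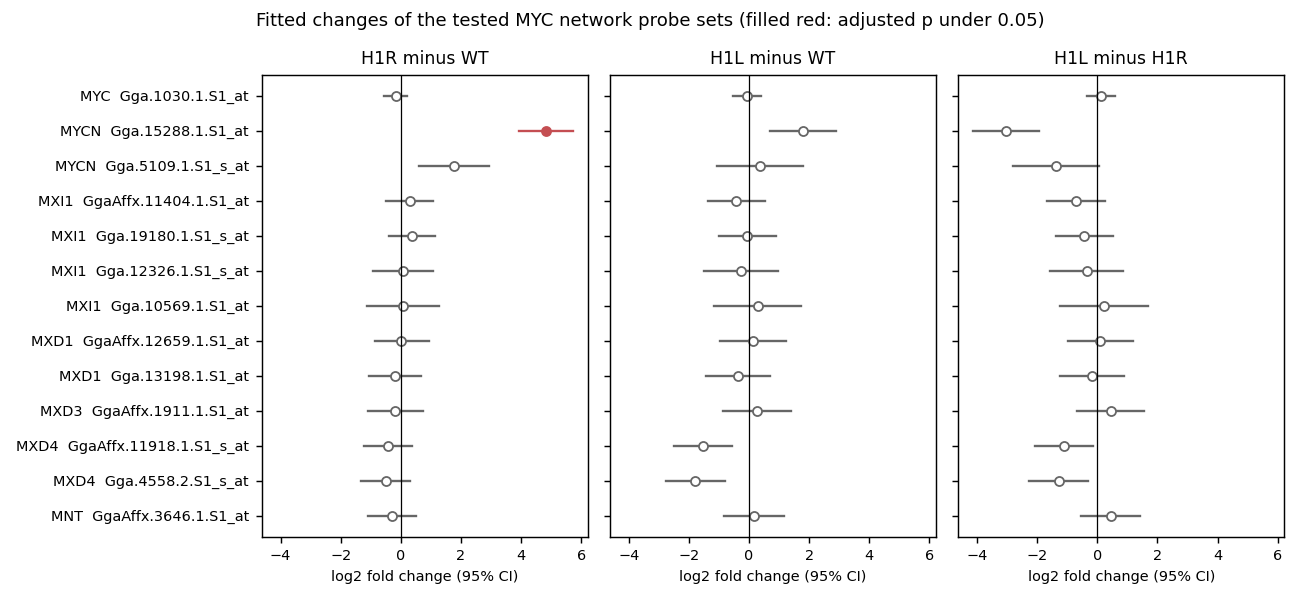
Log2 fold change with its 95% interval (limma) for the 13 tested member probe sets, from left to right for H1R minus WT, the array labelled H1L minus WT, and the array labelled H1L minus H1R, with filled red points for an adjusted p under 0.05. The brighter MYCN probe set in H1R minus WT, at 4.83, is the 1 red point, and intervals of MYC are the narrowest.

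By size alone, 2 of 13 member probe sets were at least 1 log2 unit higher in H1R than in WT, both of MYCN, where 5.14% of all were, and 0 were as much lower, where 4.27% were. Against WT, the array labelled H1L was as much lower in 2, of MXD4, where 6.39% of all were. The 1 member probe set as much higher there, where 4.29% of all were, was of MYCN and at or below the limit in both groups, so it counts as no measured rise. Against H1R the array labelled H1L was as much higher in 0 and as much lower in 4, those of MYCN and MXD4, where 3.22% and 6.22% of all were. Of the remaining 9 tested probe sets, of MYC, MXI1, MXD1, MXD3 and MNT, none differed by 1 log2 unit from WT in either deletion. The median log2 fold change over the 13 was 0.0226 in H1R and -0.0612 on the array labelled H1L, beside 0.0904 and -0.0524 over all tested probe sets.

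The 5 genes most like MYC over the 5 arrays were STN1, ATP11B, RPSAP58, OST4 and COX7C, with root mean square differences of 0.00935 to 0.0361 among 11027 probe sets above the limit on all arrays. STN1, a subunit of a telomere maintenance complex, read 123 on the array labelled H1L, 102.8 and 122.1 in H1R, and 118.5 and 135 in WT. Like MYC it was lowest on replicate 1 of H1R and highest on replicate 2 of WT, so the likeness describes small differences between arrays. MYB was less closely matched, with BICD2 nearest at 0.412, and since MYB was near background its neighbours share little more than a high replicate 1 of WT.

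The genes that act with or through the network were followed in 11 lists beside the members. A gene counts as passing if any of its tested probe sets passed. Of all tested probe sets, 1.15% passed in H1R and 0.2% on the array labelled H1L. At an unadjusted p under 0.05, 10.2% and 6.9% did. These are shares of probe sets, whereas the lists count genes. A gene with several probe sets has more chances to pass, so the counts below are not like for like with these shares. Cofactors of MYC, the SIN3 and histone deacetylase corepressors of the MXD proteins, other MAX and MLX network genes, and enzymes of MYC protein turnover had 0 genes past the threshold against WT, of 8, 9, 3 and 8 tested (limma; at an unadjusted p under 0.05 they were 1, 1, 0 and 1 for H1L and 1, 0, 0 and 0 for H1R). ACTL6A is an actin-related subunit of complexes that MYC recruits. Its brightest probe set read 1070.9 on the array labelled H1L, 832.9 and 1349.1 in H1R and 435.6 and 800.5 in WT. That probe set passed in H1R only with the day as block (log2 fold change 0.84 ± 0.37, limma adjusted p = 0.506, or 0.0468 with the block). The other tested ACTL6A probe sets did not pass with the block (limma adjusted p = 0.0899 and 0.0722).

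MYC-induced genes of growth and ribosome biogenesis, of metabolism and of the cell cycle had 28, 24 and 16 tested genes. In H1R their median log2 fold changes were 0.152, 0.0217 and 0.0677 beside 0.118 for all named genes, and on the array labelled H1L -0.0159, -0.069 and 0.1 beside -0.047. With limma, 1 of these genes passed in H1R and 0 passed on the array labelled H1L. On that array 3, 4 and 1 had an unadjusted p under 0.05, where 6.9% of all tested probe sets did. In H1R 2, 3 and 4 did, where 10.2% of all tested probe sets did, again a share of probe sets beside a count of genes. The 1 that fell in H1R was ID2, an inhibitor of differentiation factors that MYC and MYCN induce in mammals. ID2 signals were 146.5 on the array labelled H1L, 31 and 31.5 in H1R, and 366.3 and 323.6 in WT, with H1R below and WT above. Its log2 fold change was -3.25 ± 0.31 (limma adjusted p = 0.00248), from 1 of its 4 probe sets, since the others lay near background, and the call was lost when its probe sets were averaged (-1.79, limma adjusted p = 0.0828).

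With the day as block, 3 more of these genes passed in H1R, where 841 of all 23053 tested probe sets did. The 3 lists held 54, 47 and 26 tested probe sets, so their share was similar and does not mark the MYC-induced genes. CCND2, a cyclin of the G1 phase, passed in its brightest probe set (log2 fold change 0.86 ± 0.24, limma adjusted p = 0.215, or 0.0286 with the block). That probe set read 987.6 on the array labelled H1L, 1796 and 2010.2 in H1R, and 952.9 and 1147.1 in WT. The other tested CCND2 probe sets did not pass with the block (limma adjusted p = 0.225 and 0.054). NIP7, a ribosome assembly factor, gave 0.64 ± 0.19 (limma adjusted p = 0.269, or 0.0478 with the block). SLC2A1, the glucose transporter GLUT1, read 85.1 on the array labelled H1L, 79.7 and 80 in H1R, and 223 and 182.4 in WT (-1.28 ± 0.31, limma adjusted p = 0.143, or 0.0276 with the block). CCND2 and NIP7 were thus higher and SLC2A1 lower in H1R, on that fit.

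MYC-repressed genes had 0 of 14 past the threshold in H1R and on the array labelled H1L (limma), with medians of 0.27 and -0.147, beside 0.118 and -0.047 for all named genes. Of the 14, 11 had a positive log2 fold change in H1R and 6 on the array labelled H1L. At an unadjusted p under 0.05 they were 2 and 3, where 10.2% and 6.9% of all tested probe sets were. GADD45A, a stress gene that MYC represses, read 1578 on the array labelled H1L, 903.9 and 1292 in H1R, and 611.9 and 831.6 in WT. It did not pass, with log2 fold changes of 1.14 ± 0.36 and 0.60 ± 0.30 against WT. GADD45G of the same list went the other way and did not pass either. Its log2 fold change was -0.80 ± 0.47 in H1R, and it was at least 2.59-fold lower on the array labelled H1L. FTH1, the ferritin heavy chain, passed in H1R in 1 probe set with the day as block (-0.86 ± 0.25, limma adjusted p = 0.227, or 0.0123 with the block).

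**Figure D3:**
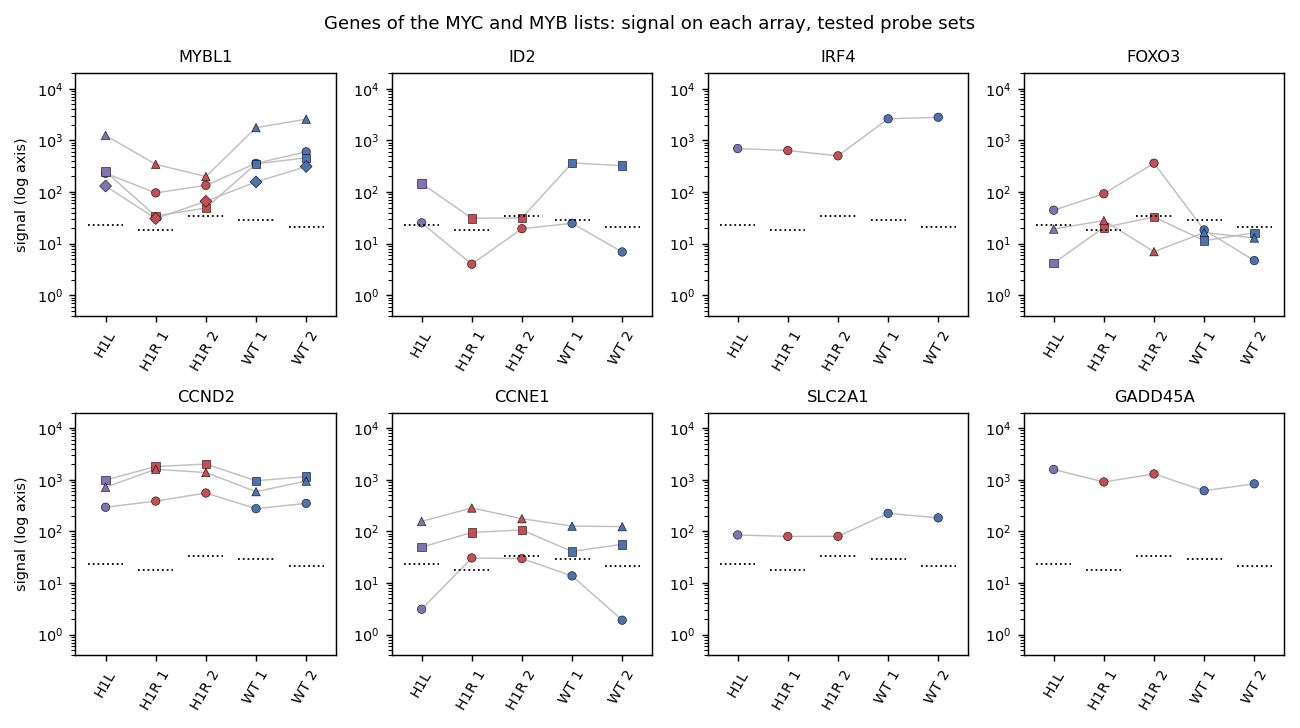
Signal on each array, on a logarithmic axis, of tested probe sets of 8 genes of the surrounding lists (MYBL1, ID2, IRF4, FOXO3, CCND2, CCNE1, SLC2A1 and GADD45A), drawn like the members. MYBL1 and ID2 are low in H1R and intermediate on the array labelled H1L, whereas IRF4 and SLC2A1 are low on all 3 deletion arrays.

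MYBL1, also called A-MYB and a paralogue of MYB, fell in H1R. MYBL1 in its brightest probe set read 1249.5 on the array labelled H1L, 344.1 and 199.7 in H1R, and 1767.1 and 2580.1 in WT. A second probe set read 249 on the array labelled H1L, 34.4 and 49.1 in H1R, and 352.1 and 459.2 in WT. In both, all H1R arrays lay below, and the array labelled H1L between H1R and WT. The brightest averaged 272 ± 102 in H1R and 2170 ± 575 in WT (SD, n = 2 each), a ratio of 0.125 (limma adjusted p = 0.00597, but 0.0525 with eBayes without a trend). The second had a log2 fold change of -3.12 ± 0.34 (limma adjusted p = 0.00472).

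The other 2 tested MYBL1 probe sets gave -1.98 and -2.16 in H1R and passed with the day as block (limma adjusted p = 0.0527 and 0.0886, or 0.00162 for both with the block). The array labelled H1L differed from H1R by 2.44 ± 0.41 in the probe set with a log2 fold change of -3.12 in H1R, 2.59 after the median of all probe sets is taken off (limma adjusted p = 0.278, or 0.0496 with the block). MYBL1 was the 1 of 8 tested genes of the MYB family and its partners past the threshold in H1R. Of 8 tested MYB target genes, 0 passed in H1R or on the array labelled H1L (limma). At an unadjusted p under 0.05 they were 2 and 2, where 10.2% and 6.9% of all tested probe sets were.

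Among 22 tested regulators that act upstream of MYC in B cells, with 43 probe sets, 1 fell and 1 rose in H1R. Of all tested probe sets 0.573% passed as lower and 0.581% as higher. IRF4, a transcription factor of activated B cells and plasma cells, read 696.4 on the array labelled H1L, 636.8 and 502.7 in H1R, and 2621.1 and 2804.9 in WT. All 3 deletion arrays lay below both WT arrays. The log2 fold change was -2.25 ± 0.25 in H1R (limma adjusted p = 0.00565, but 0.0596 without replicate 1 of WT and 0.0569 with eBayes without a trend). On the array labelled H1L it was -1.95 ± 0.31 (limma adjusted p = 0.0835, or 0.0131 with the day as block).

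FOXO3, a forkhead factor that opposes MYC in mammals, read 44.5 on the array labelled H1L, 92.6 and 361.6 in H1R, and 18.4 and 4.7 in WT, at least 7.32-fold higher in H1R (limma adjusted p = 0.0488). Its call was lost in 9 of 13 alternatives, and its other 2 probe sets were above the limit on 1 array each. CTNNB1, the signalling protein beta-catenin, passed in H1R with the day as block alone (0.84 ± 0.28, limma adjusted p = 0.319, or 0.0224 with the block). FUBP1, which binds a DNA element upstream of MYC in humans, did so in its brightest probe set (1.12 ± 0.52, limma adjusted p = 0.534, or 0.0154 with the block). Its other tested probe sets did not pass with the block (limma adjusted p = 0.586, 0.649 and 0.146).

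**Figure D4:**
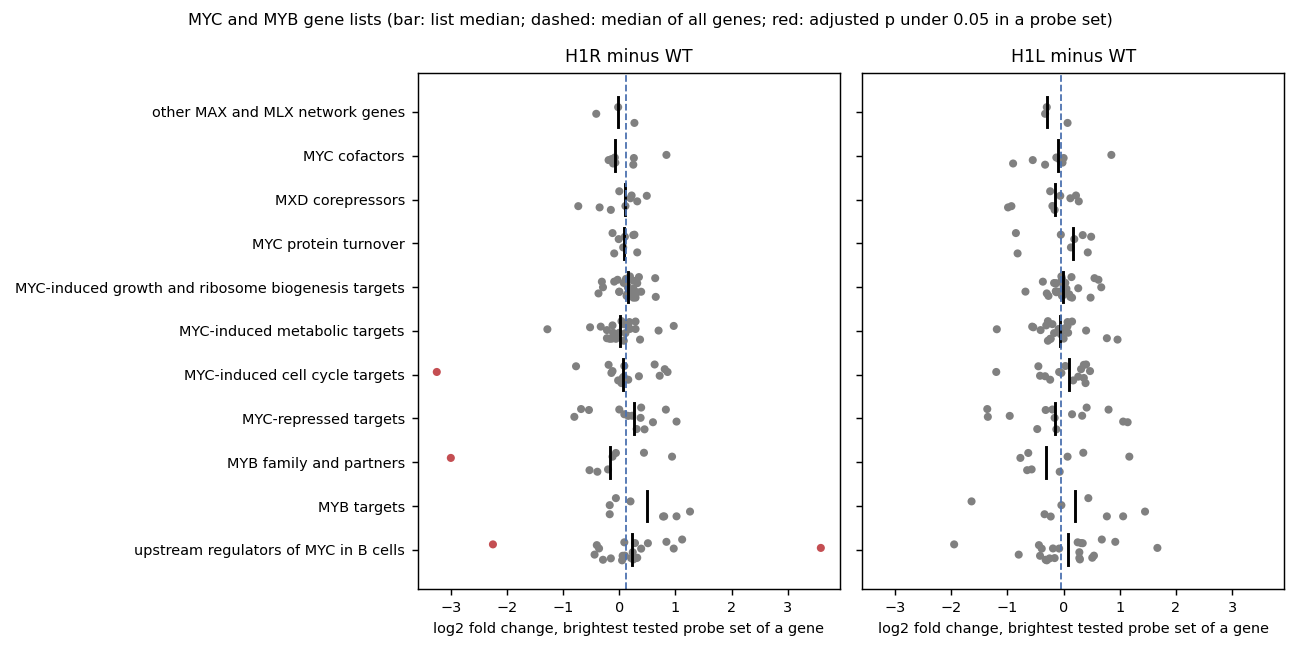
Log2 fold change of the brightest tested probe set of each gene in 11 gene lists around the network, for H1R minus WT and for the array labelled H1L minus WT, with a bar at the median of a list, a dashed line at the median of all named genes and red points for genes past the threshold. Most genes of the lists lie near the median of all genes, 0.118 in H1R and -0.047 on the array labelled H1L.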

How the data were processed

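Total RNA of DT40 cells was measured on 5 Affymetrix arrays. The authors deposited 1 linear signal intensity per probe set and array, computed in GCOS according to the submitters' processing notes. Its version and scaling target are not given in the sources used here. After 96 control probe sets were left out, 38439 remained, of which 27168 had 1 gene symbol, 177 several and 11094 none, and 26853 matched RefSeq genes of GRCg7b. The number of arrays limits the precision.

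Probe sets with a mean signal above 13.4 (the 40th percentile) were tested as log2(signal + 5.6), 5.6 being the 25th percentile of all signals, so changes of dim probe sets are understated. All 5 arrays entered 1 linear model of the 3 groups (limma 3.58.1, run in R 4.3.3, with lmFit and trended eBayes, and 2 residual and 6.02 prior degrees of freedom). The model was also run on data simulated from its own fitted spread, without a day effect. That run does not test whether the model holds for these 5 arrays. P-values were two-sided and adjusted by Benjamini-Hochberg over all 23053 probe sets of a comparison. Where a group was at or below the background limit on every array, the fold is a bound: each dim array was set to its limit, or to its signal where higher, and compared by mean log2 value with the bright group. Same-day arrays of H1R and WT deviated together (correlation 0.189 over probe sets, 0.185 after quantile normalization) and the date code marks the shared day, so the day was also entered as a block (1 residual and 8.24 prior degrees of freedom). No array repeated another (at most 0.856% identical signals).

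The members and lists were chosen with earlier results of these data known. All members were named. From the other lists came genes past the threshold, and the 2 largest rises and falls per list could be named. Alternatives were quantile normalization, median scaling, added constants of 1 and 32, no filter and a filter at the 60th percentile, eBayes without a trend, averaged probe sets, the day block, leaving out each replicate of H1R and WT, and a background limit at the 95th percentile of the controls. No sequence is given.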

Additional observations from a re-analysis of the deposited data

How the results depend on the processing

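Probe sets past the threshold in H1R against WT numbered 266, but 105 without a filter, 138 with eBayes without a trend, 841 with the day as block (492 higher, 349 lower) and 81 to 326 with 1 array left out (81 without replicate 1 of WT, 147 without replicate 2 of WT). For the array labelled H1L against WT the count of 46 became 27 with a constant of 1, 10 without a filter, 0 with eBayes without a trend (1568 had an unadjusted p under 0.05), 111 with the block and 2 to 125 with 1 array left out. For the array labelled H1L against H1R the count of 1 became 2 after quantile normalization and with a constant of 32, 0 with eBayes without a trend (1339 unadjusted), 29 with the block and 0 to 32 with 1 array left out. With the block MYCN remained the 1 member past the threshold. Of 1255 alternative values of 99 single probe set results, 36 changed sign, 0 of them among the 13 results past the threshold. Calls among those 13 were lost 32 times (FOXO3 9, MMP9 7, CD79B 5, COL1A2 4, CD5 3, IRF4 2, ID2 and MYBL1 1 each), and 17 values of the others passed. After quantile normalization or median scaling the sign changed for MXD1 in H1R (-0.04, -0.03), MYC on the array labelled H1L (0.07, 0.01) and, with median scaling, MXI1 there (0.01). With probe sets averaged MXD1 gave -0.08 in H1R, -0.12 on the array labelled H1L and -0.04 between them. With the block the array labelled H1L against WT gave -0.15 for EIF4G1, -0.05 for MNT, -0.21 for MXD1, -0.08 for MXD3 and -0.04 for the second MYCN probe set, and MXD1 gave -0.24 against H1R. With 1 array left out, H1R against WT ranged from -0.35 to 1.96 for IGLL1, -0.37 to 0.41 and -0.5 to 0.13 for MXD1, -0.65 to 0.29 for MXD3, and -0.29 to 0.44, -0.5 to 0.66 and -0.08 to 0.66 for MXI1. The array labelled H1L against WT ranged from -0.02 to 0.35 for MNT, -0.26 to 0.52 for MXD1, -0.21 to 0.72 for MXD3, -0.3 to 1.05 for MYCN, -0.02 to 2.36 for CEBPB, -0.08 to 0.66 for MXI1 and -0.16 to 0.04 for MYC. Against H1R it ranged from -0.19 to 0.4 and -0.49 to 0.12 for MXD1, 0 to 0.23 for MYC and -0.93 to 0.22 for MXI1. In each case the cause was not tested. Of the 16 member probe sets, 9 were above the background limit on all arrays with either limit. Signal near background limits what can be said of MYB, the dimmest MNT and MXD1 probe sets, and MYCN outside H1R.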

Other observations

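The likeness of MXD4 to other genes was looked up after its values had been seen. The 5 genes nearest to its brighter probe set were FAM53A, SSU72, SEC61A1, IPO7 and RAB43, with root mean square differences of 0.0916 to 0.146 in centred log2 signal over the 5 arrays, among 11027 probe sets. SEC61A1, a subunit of the channel that carries proteins into the endoplasmic reticulum, read 1582.4 on the array labelled H1L, 2933.7 and 3023.3 in H1R, and 4394.5 and 3139.3 in WT. FAM53A read 92.9 on the array labelled H1L, 199.7 and 159.1 in H1R, and 328.6 and 198.1 in WT. As for MXD4, the array labelled H1L was lowest and replicate 1 of WT highest, an order that follows from the search that picked these genes.

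Around MYC, ASAP1, a GTPase-activating protein with 11 genes between it and MYC in GRCg7b, read 253.1 on the array labelled H1L, 161 and 263.2 in H1R, and 58.1 and 103.5 in WT in its brightest probe set. Its log2 fold change in H1R was 1.34 ± 0.40 (limma adjusted p = 0.249, or 0.0183 with the day as block), and its other 3 tested probe sets gave values between 0.06 and 1.16. FAM84B and FAM49B, the nearest genes with a tested probe set on either side of MYC, gave -0.11 ± 0.34 and 0.08 ± 0.22 in H1R (limma adjusted p = 0.923 and 0.892 with the block). No neighbour of MYC looked up other than ASAP1 passed in H1R, with or without the block.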
